A study of Mus musculus with 12 samples.

Results

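Hippocampal neurons of the mouse polarise during the days after plating, when 1 of several similar neurites becomes the axon. The step described here is the change between the arrays labelled 1 DIV and those labelled 3 DIV (DIV, days in vitro), chosen by their labels as the 4 of 12 arrays on either side of this event. All genes on the arrays were followed, 20358 in all. The 3 DIV group held 2 arrays of cultures after 3 days. The 1 DIV group held 2 arrays of cultures labelled 20 hours. The other 8 arrays, a pair at each of 0, 6, 12 and 15 DIV, entered the fit and were used to place the step in the whole course.

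Every group came from the same kind of culture. Hippocampi of RjOrl:SWISS embryos at e17.5-18.5 (embryonic days) were dissociated with trypsin and plated in a serum medium, which was soon exchanged for Neurobasal with B27. No gene was altered and no treatment was compared. Cytosine arabinoside, which stops dividing cells, was added to the cultures at 3 DIV at 1 µM. Whether it was already present when the 3 DIV RNA was taken is not given in the sources used here. From each culture 25 ng of total RNA was amplified and hybridised to an Affymetrix Mouse Gene 1.0 ST array, and the methods call the 2 arrays of a time independent replicas. How many embryos went into a culture is not given in the sources used here, and the stage of the cells was not scored on these cultures. The median log2 gene value of the arrays lay between 7.35 and 7.57. Across genes, none of them an independent replicate, the paired arrays of a time correlated with an r of 0.964 at 3 DIV and 0.979 at 1 DIV.

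A dissociated hippocampal neuron first puts out several short neurites that look alike. One of them then grows fast, gains axonal proteins such as the microtubule-binding protein tau and is left as the axon, while the others later become dendrites. Polarity kinases and small GTPases choose the neurite, microtubule proteins and the growth cone drive it forward, and guidance receptors and adhesion molecules steer it. Synapses form afterwards, from vesicle proteins on the axon and a postsynaptic density of receptors, kinases and scaffolds on the dendrite.

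Most genes moved little over this step. The median difference of 3 DIV minus 1 DIV was -0.02 on the log2 scale. For 83.8% of genes the 95% confidence interval lay within 1 on either side of no difference, and the interval reached a median of 0.50 to each side. The fit by limma, with terms for time and for the replicate block, called 32 genes higher at 3 DIV and 4 lower after Benjamini-Hochberg adjustment over all genes. These are 0.157% and 0.0196% of the genes tested. Before adjustment, 5.08% of genes were higher and 2.81% lower at a p under 0.05. On all 36 called genes both 3 DIV arrays lay on the same side of both 1 DIV arrays, which was so for 15.7% of all genes above and 15.1% below. The rises lay between 1.18 and 2.73 with a median of 1.49.

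The number of calls changed with the arrays in the fit. Without 3 DIV replicate 1 no gene was called by limma in either direction, with 968 genes at an unadjusted p under 0.05. Leaving out a 3 DIV or a 1 DIV array leaves 1 array at that time, which is then assumed to vary like the other times, so such fits also have less power. The fit called 4 genes higher and 0 lower without 3 DIV replicate 2, 1 and 0 without 1 DIV replicate 1, and 1 and 1 without 1 DIV replicate 2. It called 3 and 2 without either 0 DIV array, 2 and 2 without either 6 DIV array and 3 and 1 without either 15 DIV array, but 60 and 16 without either 12 DIV array. Without the replicate block it called 1 and 1, *Camk2a* and *Eomes*. An array left alone at a time other than 1 or 3 DIV is fitted exactly. Leaving out either array of such a time, or both, is therefore the same check. The estimated differences are the same, by construction, in the fit without the block and without arrays of other times. Only the spread and the p-values can move there.

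**Figure D1:**
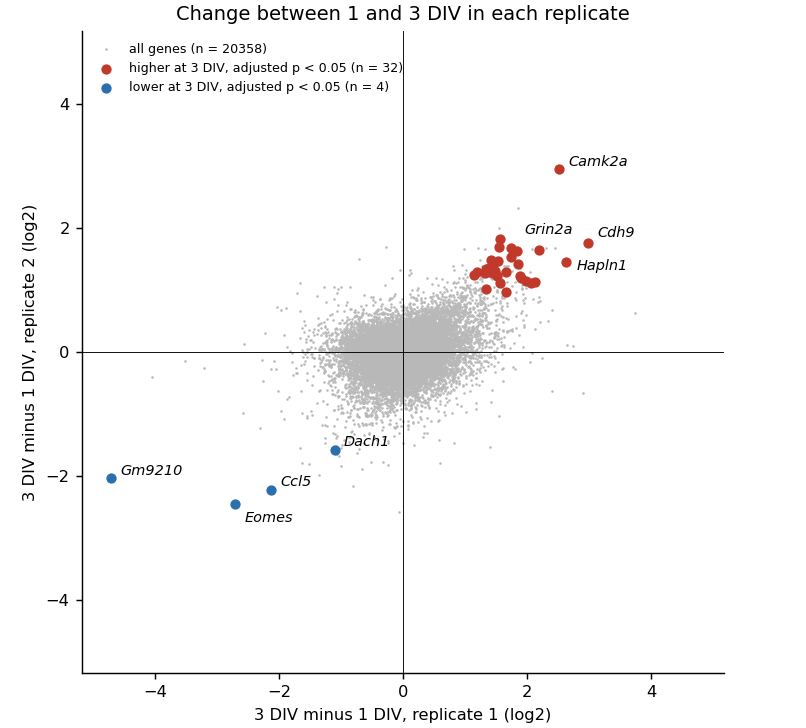
Difference of 3 DIV minus 1 DIV on the log2 scale in replicate 1 (x axis) against replicate 2 (y axis) for all 20358 genes (grey), with the 32 genes called higher in red and the 4 called lower in blue. The called genes lie away from 0 in both replicates, and 26 of the 32 risers lie further out in replicate 1.

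The size of the step differed between the replicate cultures. Over all genes the differences had an SD of 0.47 in replicate 1 and 0.33 in replicate 2, and across genes they correlated with an r of 0.30. Of the 32 risers, 26 had the larger difference in replicate 1. Astrocyte markers moved with that replicate. The 16 measured astrocyte markers had a mean level of 9.18 and 8.04 on the 3 DIV arrays of replicates 1 and 2, against 8.33 and 7.98 on the 1 DIV arrays. Their median difference was 0.88 in replicate 1 and 0.07 in replicate 2. Such a split was not confined to astrocyte markers. The median difference in replicates 1 and 2 was 0.37 and 0.02 for 15 microglial markers and 0.23 and -0.25 for 18 progenitor genes. Neuronal lists varied in this. The medians were 0.61 and 0.32 for 23 axonal adhesion genes, but 0.49 and 0.47 for 24 postsynaptic density genes and 0.42 and 0.43 for 25 synaptic vesicle genes. The mean level of the 12 oligodendrocyte lineage markers was 7.01 and 6.53 at 3 DIV, against 6.64 and 6.22 at 1 DIV, and their median difference was 0.17 in replicate 1 and 0.26 in replicate 2. Array signals have no true zero, so a marker cannot be read as absent. The part of these cells in the differences below was not tested. In RNA from whole cultures, more cells of a type and more RNA per cell cannot be told apart.

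The largest rise was that of *Camk2a*, which encodes the CaMKII alpha chain, a main kinase of the postsynaptic density. Its log2 values were 9.11 and 9.36 on the 3 DIV arrays, against 6.59 and 6.41 on the 1 DIV arrays. The groups lay more than 2 log2 units apart on every pairing. The difference was 2.73 (SE 0.21, adjusted p = 0.0017 from limma), a 6.66-fold rise. *Camk2a* was the only riser still called without the replicate block or with the 4 arrays alone. Without 3 DIV replicate 1 its rise was 2.75.

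*Grin2a*, the GluN2A subunit of the NMDA glutamate receptor, had 9.38 and 9.62 at 3 DIV, against 7.19 and 7.98 at 1 DIV. Both 3 DIV arrays lay above both 1 DIV arrays, and the rise was 1.92 or 3.78-fold (SE 0.19, adjusted p = 0.0074 from limma). *Gucy1b1*, the beta subunit of the guanylate cyclase that senses nitric oxide, had 9.73 and 9.16 at 3 DIV, against 7.84 and 7.93 at 1 DIV (rise 1.56, adjusted p = 0.045). *Phyhip*, which encodes a partner of phytanoyl-CoA hydroxylase, had 8.07 and 7.96 at 3 DIV, against 6.52 and 6.26 at 1 DIV (rise 1.62, adjusted p = 0.037). These genes did not overlap between the times.

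Proteins of vesicle traffic stood among the leading risers. *Cadps2*, which primes dense-core vesicles for release, had 8.36 and 7.72 at 3 DIV, against 6.52 and 6.10 at 1 DIV, a rise of 1.73 or 3.32-fold (SE 0.26, adjusted p = 0.039 from limma). *Pacsin1*, a membrane-bending protein of endocytosis in neurons, had 9.66 and 8.74 at 3 DIV, against 7.68 and 7.59 at 1 DIV, a rise of 1.56 (adjusted p = 0.039). For both genes replicate 1 held the higher 3 DIV value, with no overlap between the times.

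Adhesion molecules of the neuronal surface made up another group. *Cdh9*, a classical cadherin, had 8.73 and 7.50 at 3 DIV, against 5.74 and 5.73 at 1 DIV, a rise of 2.38 or 5.19-fold (SE 0.36, adjusted p = 0.039 from limma). *Cadm2*, an immunoglobulin-type adhesion molecule of axons and synapses, had 10.58 on both 3 DIV arrays, against 8.83 and 8.90 on the 1 DIV arrays, a rise of 1.71 or 3.28-fold (SE 0.21, adjusted p = 0.022). *Lsamp*, a GPI-anchored adhesion protein of limbic neurons, had 10.67 and 10.04 at 3 DIV, against 8.82 and 8.62 at 1 DIV, a rise of 1.63 (adjusted p = 0.022). The replicates agreed closely for *Cadm2* and differed by more than 1 log2 unit at 3 DIV for *Cdh9*. *Plppr5*, a membrane protein of the phospholipid phosphatase-related family, had 9.86 and 9.12 at 3 DIV, against 7.73 and 7.99 at 1 DIV (rise 1.63, adjusted p = 0.039).

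*Slc12a5* encodes KCC2, the potassium-chloride cotransporter that keeps chloride low in mature neurons. It had 9.72 and 9.36 at 3 DIV, against 7.98 and 7.82 at 1 DIV, a 3.13-fold rise without overlap (1.64, SE 0.24, adjusted p = 0.038 from limma). *Kcnd2*, the dendritic A-type potassium channel Kv4.2, had 10.14 and 9.88 at 3 DIV, against 8.74 and 8.59 at 1 DIV (rise 1.35, adjusted p = 0.039).

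*Hapln1*, a link protein that ties proteoglycans to hyaluronan, had 7.10 and 5.90 at 3 DIV, against 4.47 and 4.46 at 1 DIV, a rise of 2.04 or 4.11-fold (SE 0.32, adjusted p = 0.045 from limma). *Sparcl1* (hevin), a matrix protein of astrocytes that promotes synapses, had 10.43 and 10.05 at 3 DIV, against 8.87 and 8.23 at 1 DIV, a rise of 1.69 (SE 0.20, adjusted p = 0.022). *Rgcc*, a regulator of the cell cycle, had 7.46 and 5.95 at 3 DIV, against 5.40 and 4.84 at 1 DIV (rise 1.59, adjusted p = 0.045). The 3 DIV arrays of *Hapln1* and *Rgcc* were more than 1 log2 unit apart. With all probesets of the gene, the rise of *Hapln1* was 0.96 and that of *Rgcc* 0.50, neither of them called.

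The other 18 risers were *Ptprr* (a tyrosine phosphatase of MAP kinases), *Camkv* (a catalytically inactive relative of calcium/calmodulin kinases), *Fam81a*, *Tmeff2*, *Ak5* (an adenylate kinase), *Pitpnm1* (a phosphatidylinositol transfer protein), *Adam11*, *Hpcal4* (a neuronal calcium sensor), *Caly* (calcyon, of endocytosis), *Nbl1* (a secreted BMP antagonist), *Kcnd2*, *Selenom*, *Gpr12* (an orphan receptor), *Ccdc148*, *Adcy1* (a calcium-stimulated adenylate cyclase), *Slc35f3*, *St6galnac5* (a sialyltransferase of gangliosides) and *Cntn1* (contactin, an axonal adhesion protein). *Cntn1* had the smallest rise of the 32, with 10.41 and 10.27 at 3 DIV, against 9.07 and 9.25 at 1 DIV (1.18, adjusted p = 0.045 from limma). With all probesets of the gene, *Pitpnm1* and *Ccdc148* had smaller rises and were not called. Just outside the threshold lay *Mfap3l* (1.53, adjusted p = 0.051).

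The genes that fell were few. *Eomes* (Tbr2), a transcription factor of the intermediate progenitors that give rise to glutamatergic neurons, had 7.16 and 7.52 at 3 DIV, against 9.86 and 9.97 at 1 DIV. Its groups lay more than 2 log2 units apart, a fall of 2.58 or 5.96-fold (SE 0.26, adjusted p = 0.0079 from limma). *Ccl5*, an inflammatory chemokine, had 7.57 and 7.35 at 3 DIV, against 9.70 and 9.57 at 1 DIV, a fall of 2.17 or 4.51-fold (SE 0.27, adjusted p = 0.022). *Dach1*, a transcription factor of neural progenitors, had 7.06 and 6.40 at 3 DIV, against 8.16 and 7.98 at 1 DIV, a fall of 1.34 (SE 0.21, adjusted p = 0.039). The gene model *Gm9210* rested on a single probeset and had 5.55 and 6.37 at 3 DIV, against 10.25 and 8.41 at 1 DIV (difference -3.37, SE 0.51, adjusted p = 0.039).

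**Figure D2:**
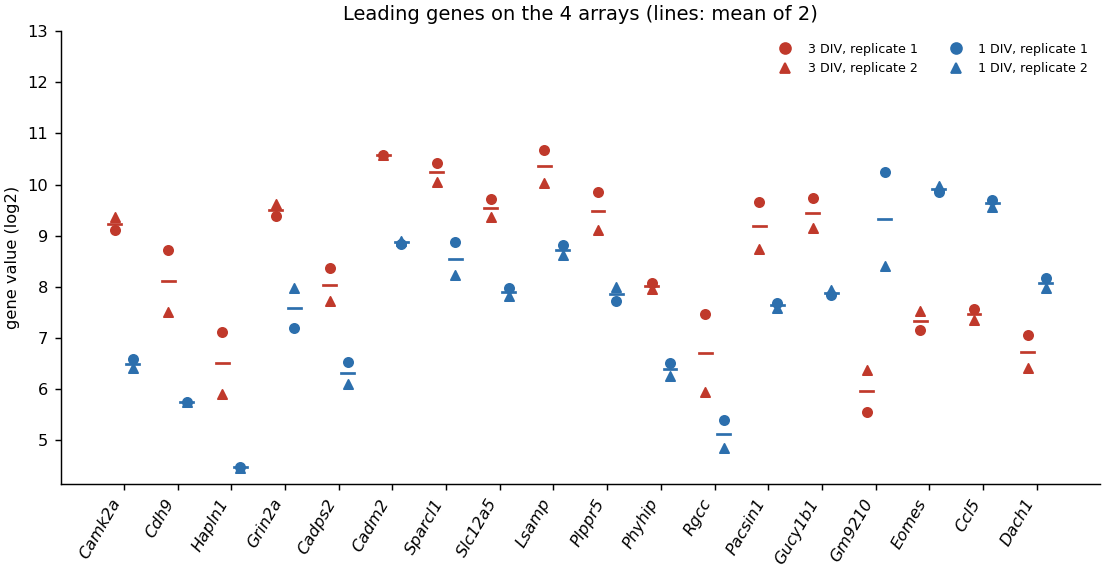
Log2 gene values (y axis) of the 14 leading risers and the 4 fallers on the 3 DIV arrays (red, left in each pair) and the 1 DIV arrays (blue, right), with circles for replicate 1, triangles for replicate 2 and lines for the mean of 2. No gene overlaps between the times, and the 3 DIV arrays of *Cdh9*, *Hapln1* and *Rgcc* stand furthest apart.

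Promoter sequence was read for called genes to show which common promoter elements lie next to their starts. Of the 36 called genes, 27 matched a RefSeq promoter (GRCm38.p6), with 38 promoters between them, and the 250 bases before the start were searched on both strands. The GC box GGGCGG, bound by Sp-type factors, lay in 22 of the 38 promoters and in 32.7% of all 32851 promoters of the same length. The cAMP-response core TGACG lay in 8 of 38 and in 17.8% of all, the proneural E-box CAGATG in 6 of 38 and in 14.4%, and the TATA box TATANAA in 1 of 38 and in 10.4%. Promoters of the same gene are not independent. Counted by gene, 19 of the 27 had the GC box, 8 the cAMP-response core, 6 the E-box and 1 the TATA box. No motif was tested for an excess. None of these motifs is contained in another, and a match is a description of the sequence and not of a bound factor. The promoters below are those of the first risers and the first faller, in order of size, that had a single promoter entry and a match. Genes of a chromosome that was left out of this choice were also skipped, whatever their promoter. A larger riser may be absent for that reason alone. The sequences are shown 5′ to 3′ on the gene's strand, with the matched letters in capitals. *Cadps2* has GC boxes and no TATA box (chr6:23839422-23839671, minus strand), *Cadm2* has a single GC box (chr16:67620909-67621158, minus strand), and *Eomes* has the TATA box (chr9:118477939-118478188, plus strand).
Cadps2: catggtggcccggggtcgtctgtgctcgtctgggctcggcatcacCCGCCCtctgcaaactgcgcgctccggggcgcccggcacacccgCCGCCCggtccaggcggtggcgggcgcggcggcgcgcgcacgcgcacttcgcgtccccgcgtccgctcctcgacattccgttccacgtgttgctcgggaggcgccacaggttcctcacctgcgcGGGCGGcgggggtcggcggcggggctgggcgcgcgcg
Cadm2: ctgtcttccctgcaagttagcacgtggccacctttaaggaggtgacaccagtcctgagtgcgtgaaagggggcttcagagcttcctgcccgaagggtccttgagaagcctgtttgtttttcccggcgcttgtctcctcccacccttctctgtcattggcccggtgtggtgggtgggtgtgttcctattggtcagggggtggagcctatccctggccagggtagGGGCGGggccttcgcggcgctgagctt
Eomes: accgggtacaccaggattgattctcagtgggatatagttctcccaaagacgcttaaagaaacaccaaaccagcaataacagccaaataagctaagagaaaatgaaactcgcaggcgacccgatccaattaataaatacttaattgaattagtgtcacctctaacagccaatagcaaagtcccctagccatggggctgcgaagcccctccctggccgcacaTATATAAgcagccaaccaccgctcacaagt

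Genes were next read by their roles in polarisation, in 33 lists with 597 measured entries and 564 distinct genes. Of these genes 7 were called higher and 1 lower, where 0.157% and 0.0196% of all genes were. No list was tested as a whole, so each is given by its counts and its median, beside -0.02 for the median of all genes.

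Polarity signalling, which chooses the axon, had a median difference of 0.00 over 20 genes, none of them called. The members ran from -0.48 for *Llgl1*, a basolateral polarity protein, to 0.53 for *Prkcz*, an atypical protein kinase C of the Par complex. Their adjusted p-values from limma were 0.553 and 0.530. *Dpysl2* (CRMP2), which binds tubulin and drives axon formation, had 12.43 and 12.80 at 3 DIV, against 12.30 and 12.58 at 1 DIV, with overlap (0.17, interval -0.23 to 0.58). The differences were -0.04 for *Stk11* (the kinase LKB1) and -0.05 for *Pard3*, a scaffold of the Par complex.

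Growth cone and outgrowth genes had the narrowest range of differences of the 33 lists. None of the 23 was called, none reached an unadjusted p under 0.05, and the differences lay between -0.23 for *Marcksl1* and 0.34 for *Gprin1*, around a median of 0.08. *Gap43*, the main growth cone protein, had 11.88 and 12.18 at 3 DIV, against 11.77 and 12.13 at 1 DIV. The arrays overlapped, and the difference of 0.08 had an interval of -0.36 to 0.52. *Dcx* and *Stmn2*, microtubule regulators of growing neurites, differed by 0.12 and 0.21.

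Tubulins had a median of 0.11 over 16 genes with none called, and the largest difference was 0.53 for *Tubd1*. *Tubb3*, the neuronal beta-tubulin by which such cultures are recognised, had 12.64 and 12.84 at 3 DIV, against 12.52 and 12.62 at 1 DIV. Its difference of 0.17 had an interval of -0.25 to 0.59. Microtubule-associated proteins had a median of 0.18 over 22 genes, none called. At an unadjusted p under 0.05, 5 of them were higher (5.08% of all genes) and 0 lower. *Mapt* (tau), of the axon, had 11.33 and 11.61 at 3 DIV, against 10.83 and 10.97 at 1 DIV. These arrays did not overlap, but the difference of 0.56 did not pass over all genes (interval 0.16 to 0.96, adjusted p = 0.353 from limma). *Map2*, of dendrites, had 11.56 and 11.71 at 3 DIV, against 11.25 and 11.55 at 1 DIV, a difference of 0.23 with an interval of -0.20 to 0.67. The largest value was 1.08 for *Map7* (adjusted p = 0.121), with 7.81 and 6.50 at 3 DIV, against 6.33 and 5.82 at 1 DIV.

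Among 7 neurofilament genes, none was called. *Nefl*, the light chain, had 9.96 and 9.66 at 3 DIV, against 8.89 and 8.67 at 1 DIV, apart by 1.03 (adjusted p = 0.104 from limma), while *Nefh*, the heavy chain, differed by 0.15. Of 20 transport kinesins none was called, and the largest value was 0.98 for *Kifc2* (adjusted p = 0.232). The axon initial segment, which forms on the new axon, had a median of 0.19 over 10 genes with none called. *Fgf13*, which binds sodium channels, differed by 0.93 (adjusted p = 0.104) and *Scn2a*, a sodium channel of the young axon, by 0.84 (adjusted p = 0.151). *Ank3*, whose product ankyrin G organises the segment, had 10.46 and 10.64 at 3 DIV, against 10.37 and 10.50 at 1 DIV, with overlap (0.11, interval -0.30 to 0.52).

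Guidance receptors had a median of 0.22 over 27 genes with none called, but 9 were higher at an unadjusted p under 0.05 (5.08% of all genes) and 1 lower. *Epha6*, an ephrin receptor, had 8.55 and 8.65 at 3 DIV, against 7.31 and 7.76 at 1 DIV (1.06, adjusted p = 0.138 from limma). *Nrp2*, a semaphorin receptor, differed by 0.84 (adjusted p = 0.111) and *Unc5c*, a netrin receptor, by 0.90 (adjusted p = 0.154). *Dcc*, the attractive netrin receptor, differed by 0.05 and *Robo1*, a Slit receptor, by -0.11, and the lowest value was -0.62 for *Unc5b*. Of 22 guidance ligands none was called. *Sema3d*, a secreted semaphorin, had 7.31 and 7.27 at 3 DIV, against 5.85 and 5.94 at 1 DIV (1.40, adjusted p = 0.082).

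Axonal adhesion molecules had a median of 0.41 over 23 genes. *Cadm2*, *Lsamp* and *Cntn1* were called higher and none lower, and 17 of the 23 had both 3 DIV arrays above both 1 DIV arrays, against 15.7% of all genes. The lowest difference was -0.10 for *Cntn2*, an adhesion protein of axon bundles, with 10.92 and 11.46 at 3 DIV, against 11.02 and 11.55 at 1 DIV. *Ncam1* and *L1cam*, adhesion molecules of outgrowth, differed by 0.23 and 0.10.

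Postsynaptic density genes had the highest median of the neuronal lists, 0.55 over 24 genes. *Camk2a* and *Grin2a* were called. At an unadjusted p under 0.05, 13 were higher (5.08% of all genes) and 0 lower. Both 3 DIV arrays lay above both 1 DIV arrays for 17 of them (15.7% of all genes). *Grin2b*, the NMDA receptor subunit of young neurons, had 10.85 and 10.99 at 3 DIV, against 10.09 and 10.31 at 1 DIV (0.72, adjusted p = 0.163 from limma). *Gria1*, an AMPA receptor subunit, differed by 0.62 (adjusted p = 0.276), *Dlg4* (the scaffold PSD-95) by 0.35 and *Gria2*, another AMPA receptor subunit, by -0.18. The lowest difference was -0.45 for *Homer2*, a scaffold protein.

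Synaptic vesicle genes had a median of 0.43 over 25 genes, none of them called. Of these, 12 were higher and 1 lower at an unadjusted p under 0.05, against 5.08% and 2.81% of all genes. *Sv2b*, a vesicle glycoprotein, had 8.32 and 7.75 at 3 DIV, against 6.22 and 6.89 at 1 DIV (1.48, adjusted p = 0.099 from limma). *Syt1*, the calcium sensor of release, had 11.76 and 11.45 at 3 DIV, against 10.84 and 10.74 at 1 DIV (0.81, adjusted p = 0.128). *Slc17a6*, a vesicular glutamate transporter (VGLUT2), had 8.27 on both 3 DIV arrays, against 9.01 and 8.91 on the 1 DIV arrays (-0.69, adjusted p = 0.295). Its relative *Slc17a7* (VGLUT1) differed by 0.16 and *Vamp2*, of the fusion machinery, by -0.05.

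Of 16 voltage-gated channels, *Kcnd2* was called. *Hcn2*, a pacemaker channel, had 9.26 on both 3 DIV arrays, against 7.93 and 7.86 at 1 DIV (1.37, adjusted p = 0.120 from limma). Activity-regulated genes had a median of 0.16 over 22 genes with none called, and the largest value was 1.05 for *Nr4a1* (adjusted p = 0.783).

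Transcription factors of newborn neurons had a median of -0.14 over 25 genes. *Eomes* was called lower and none higher, 5 were lower and 0 higher at an unadjusted p under 0.05 (2.81% of all genes were lower), and 11 had both 3 DIV arrays below both 1 DIV arrays (15.1% of all genes). *Nhlh1*, of neurons that have just left the cell cycle, had 8.03 and 8.39 at 3 DIV, against 10.34 and 9.62 at 1 DIV (-1.77, adjusted p = 0.098 from limma). *Neurog2*, a proneural factor, was lower on both 3 DIV arrays than on both 1 DIV arrays (-0.96, adjusted p = 0.406). *Neurod1* and *Tbr1*, which act in young glutamatergic neurons, differed by -0.39 and -0.38. The 18 progenitor genes had a median of 0.05 with none called, and medians of 0.23 in replicate 1 and -0.25 in replicate 2. Their highest difference was 0.63 for *Fabp7*. The lowest was that of *Pax6*, of radial glia, with 8.42 and 7.70 at 3 DIV, against 9.50 and 9.22 at 1 DIV (-1.29, adjusted p = 0.098).

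Cell cycle genes were read by phase. The S phase list had a median of -0.40 over 19 genes, none of them called. At an unadjusted p under 0.05, 7 were lower (2.81% of all genes) and 0 higher. Both 3 DIV arrays lay below both 1 DIV arrays for 11 of them (15.1% of all genes). *Mcm7*, of the replicative helicase, had 9.75 and 9.52 at 3 DIV, against 10.48 and 10.31 at 1 DIV (-0.76, adjusted p = 0.265 from limma). *Chaf1b*, a histone chaperone, had the lowest value, -0.94 (adjusted p = 0.391), and *Pcna*, the sliding clamp, differed by -0.47. The mitosis list had a median of 0.06 over 21 genes with none at an unadjusted p under 0.05 (the largest value was 0.48 for *Plk1*), and the S phase and mitosis lists were not tested against each other. *Kif11*, the mitotic kinesin Eg5 and one of the genes the study is about, had 8.47 and 7.16 at 3 DIV, against 8.57 and 7.60 at 1 DIV, with overlap (-0.27, interval -1.06 to 0.52). *Nek7*, the mitotic kinase of the study, had 8.61 and 7.84 at 3 DIV, against 7.81 and 7.62 at 1 DIV, a difference of 0.51 that did not pass (adjusted p = 0.595), and was higher at 15 DIV than at 3 DIV by 1.43 (adjusted p = 0.0028).

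Stress genes had medians below that of all genes. The integrated stress response, a programme of amino acid transport and synthesis under the factor ATF4, had the lowest median of all lists, -0.54 over 20 genes. Of them 6 were lower (2.81% of all genes) and 0 higher at an unadjusted p under 0.05. Both 3 DIV arrays lay below both 1 DIV arrays for 14 of them (15.1% of all genes), and none was called. *Slc7a11*, the cystine transporter, had 6.88 and 5.99 at 3 DIV, against 6.94 and 8.57 at 1 DIV (-1.32, adjusted p = 0.591 from limma), and *Chac1*, which breaks down glutathione, had 7.80 and 8.10 at 3 DIV, against 8.77 and 9.07 at 1 DIV (-0.97). *Atf4* itself had the highest value, 0.17. The medians were -0.25 over 19 axon injury genes and -0.20 over 14 p53 targets with none called, where *Atf3*, an injury-induced factor, differed by -1.25 (adjusted p = 0.736) and *Eda2r*, a p53-induced receptor, by -1.05 (adjusted p = 0.173).

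The metabolic lists had medians of 0.13 for hypoxia and glycolysis (24 genes), 0.04 for the mitochondrial respiratory chain (21 genes) and -0.03 for cholesterol synthesis (16 genes), with none called. The largest values in these lists were 0.64 for *Pdk1*, which turns pyruvate away from mitochondria, 0.90 for *Ppargc1a*, a coactivator of mitochondrial genes, and 0.49 for *Pmvk*, of the mevalonate pathway. The 23 genes of the extracellular matrix list had a median of 0.04 with none called, and the largest was 0.78 for *Bcan*, the proteoglycan brevican.

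**Figure D3:**
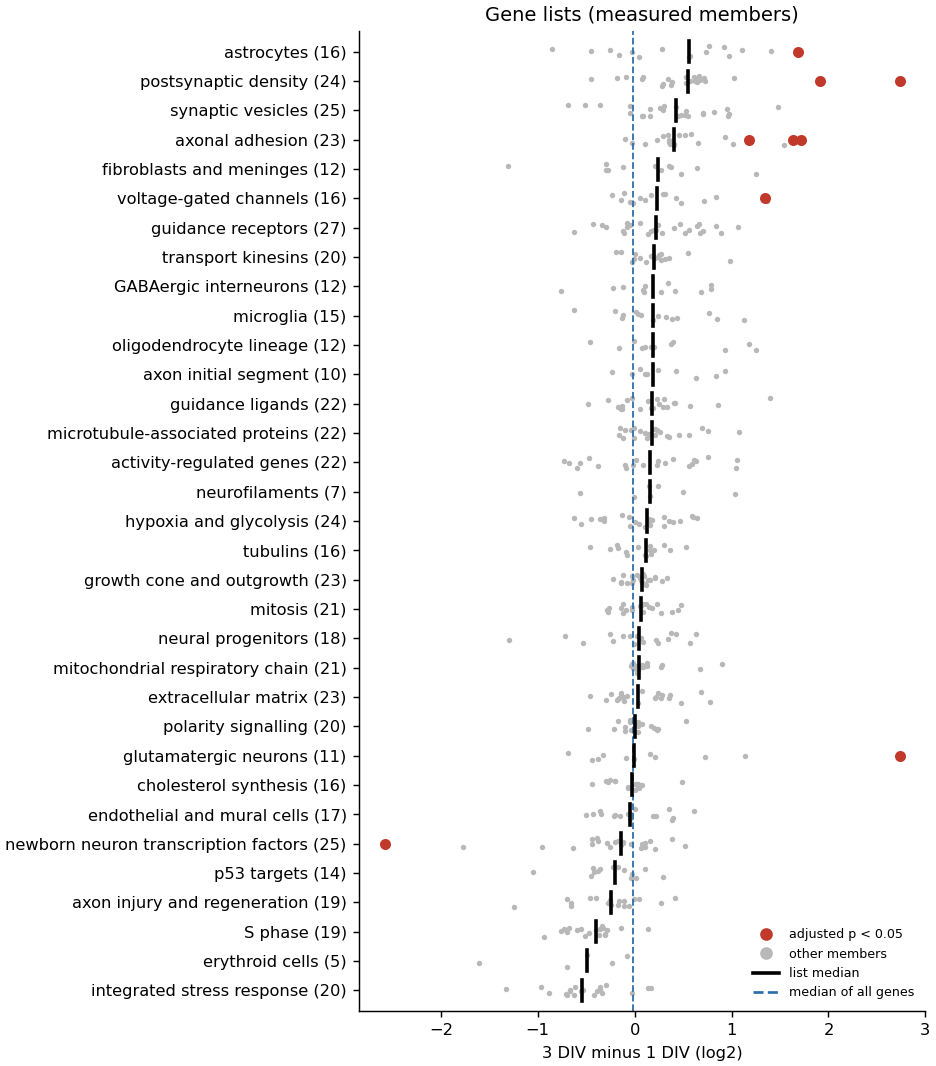
Difference of 3 DIV minus 1 DIV on the log2 scale (x axis) for the measured members of each of 33 gene lists (y axis, number measured in brackets), with called genes in red, other members in grey, list medians as black bars and the median of all genes as a dashed line. Astrocyte, postsynaptic density, synaptic vesicle and axonal adhesion lists have the highest medians (0.56 to 0.41) and the integrated stress response the lowest (-0.54).

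Markers of the cell types in the dish were read in the same way. Of 16 astrocyte markers, *Sparcl1* was called and the median was 0.56. At an unadjusted p under 0.05, 6 were higher (5.08% of all genes). *Aldh1l1*, a folate enzyme specific to astrocytes, had 8.44 and 6.68 at 3 DIV, against 6.61 and 5.70 at 1 DIV (1.40, adjusted p = 0.199 from limma). *Gfap*, the astrocyte filament, had 8.91 and 6.89 at 3 DIV, against 9.15 and 8.37 at 1 DIV (-0.86, adjusted p = 0.758). *Apoe* and *Aqp4* had their high 3 DIV value on replicate 1 alone, with 10.68 and 8.36 for *Apoe* at 3 DIV, against 8.86 and 7.98 at 1 DIV, and with 7.58 and 5.80 for *Aqp4* at 3 DIV, against 5.78 and 5.65 at 1 DIV.

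*Pdgfra*, of oligodendrocyte precursors, followed the same array, with 8.28 and 6.06 at 3 DIV, against 6.14 and 5.70 at 1 DIV (1.25, adjusted p = 0.475 from limma). The microglial *Laptm5* was high on both, with 8.05 and 7.88 at 3 DIV, against 7.06 and 6.62 at 1 DIV (1.13, adjusted p = 0.211). The lowest difference of the microglial markers was -0.63 for *Cd68*. The 15 microglial markers had a median of 0.19, the 17 endothelial and mural markers -0.04, the 12 fibroblast and meningeal markers 0.24 and the 5 erythroid markers -0.49, all with none called. *Hbb-b1*, a beta-globin of red cells, had 5.72 and 8.81 at 3 DIV, against 7.38 and 10.35 at 1 DIV, so that the replicates lay further apart than the times. *Mfap4*, a matrix protein of connective tissue, had 7.88 and 8.82 at 3 DIV, against 9.51 and 9.81 at 1 DIV (-1.31, adjusted p = 0.119 from limma). Of the neuronal markers, the 12 GABAergic genes had a median of 0.19 with none called. They ran from -0.76 for *Npy* to 0.78 for *Gad1*, which makes GABA. The 11 glutamatergic genes had a median of -0.00 with *Camk2a* called.

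The place of the step in the whole course was then read for the called genes. Of the 32 risers, 18 had a lower mean at 1 DIV than at 0 DIV, with 2 called lower and 1 called higher by limma (over all genes, 0.28% were called lower and 0.766% higher). *Sparcl1* was lower at 1 DIV than at 0 DIV by 1.28 (adjusted p = 0.021) and *St6galnac5* by 1.06 (adjusted p = 0.031), and *Nbl1* was higher by 0.86 (adjusted p = 0.047). Of the 32, 30 had a higher mean at 6 DIV than at 3 DIV, with 2 called (0.0589% of all genes were), *Camk2a* by 1.43 (adjusted p = 0.046) and *Ak5* by 1.23 (adjusted p = 0.046). At 15 DIV 21 were called higher than at 3 DIV and 0 lower, where 7.01% of all genes were called higher and 5.71% lower. *Camk2a* was higher at 15 DIV than at 3 DIV by 2.93, but *Cadm2* and *Cdh9* differed by only -0.15 and -0.20. The shares given here for all genes are of called genes, and the direction of the mean was not counted over all genes. All these comparisons share the 3 DIV or the 1 DIV arrays with the step itself.

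Of the fallers, *Eomes* had means of 10.69 at 0 DIV, 9.91 at 1 DIV, 7.34 at 3 DIV, 5.49 at 6 DIV and 5.14 at 15 DIV. It was called lower again at 6 DIV than at 3 DIV (-1.85, adjusted p = 0.046 from limma), as were 0.0491% of all genes. *Dach1* was lower at 15 DIV than at 3 DIV by 0.88 (adjusted p = 0.018). *Ccl5* was highest at 1 DIV, which lay above 0 DIV by 1.56 (adjusted p = 0.026), and its means at 3 to 15 DIV lay between 7.46 and 7.78.

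**Figure D4:**
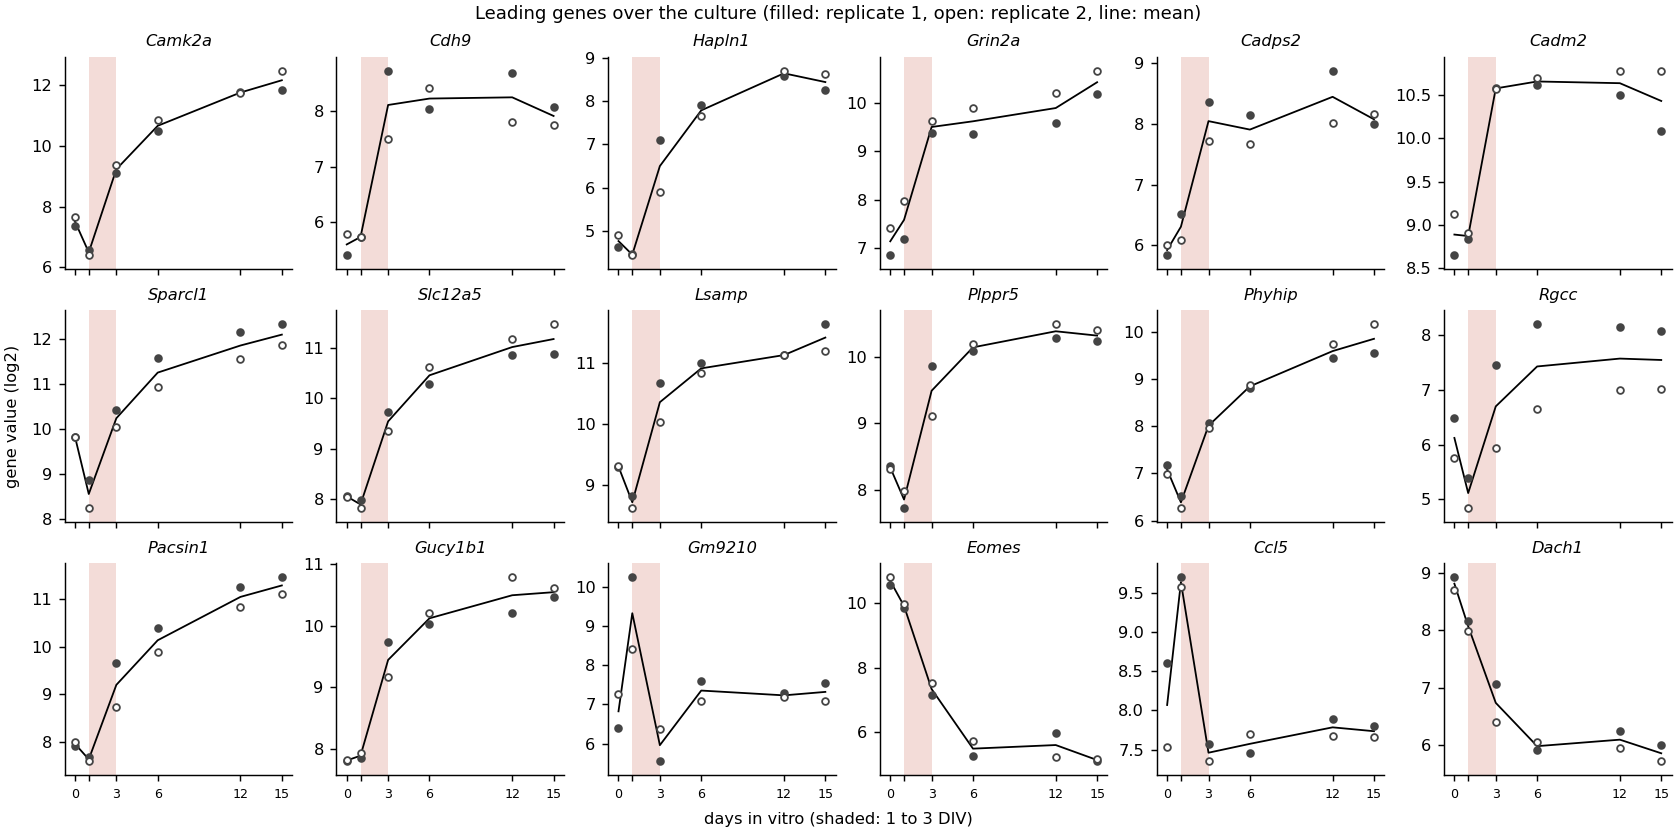
Log2 gene values (y axis) over days in vitro (x axis) of the 14 leading risers and the 4 fallers, with filled points for replicate 1, open points for replicate 2, a line for the mean and the step from 1 to 3 DIV shaded. *Camk2a* and *Sparcl1* have their lowest mean at 1 DIV and go on upward after 3 DIV, *Cadm2* and *Cdh9* level off, and *Ccl5* peaks at 1 DIV.

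Whether the step differed from its neighbours was tested gene by gene. Against the next step, 6 DIV minus 3 DIV, no gene passed in limma, where 806 genes had an unadjusted p under 0.05. One array mattered here, since 1 gene was called higher without 6 DIV replicate 2. Against the preceding step, 1 DIV minus 0 DIV, 5 genes (0.0246%) had a higher and 6 genes (0.0295%) a lower change between 1 and 3 DIV, with 1545 at an unadjusted p under 0.05. The steps share the 1 DIV arrays with opposite sign, so a value that is off at 1 DIV moves both. No gene was called in either direction without 0 DIV replicate 2, 1 DIV replicate 1, 3 DIV replicate 1 or the replicate block. The counts were 0 higher and 1 lower without 1 DIV replicate 2, 4 and 0 without 3 DIV replicate 2, 4 and 2 without 0 DIV replicate 1, 1 and 2 without either 15 DIV array and 7 and 10 without either 12 DIV array.

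For *Tac2*, the neurokinin B precursor, *Rgs5*, a marker of pericytes, and *Slc38a5*, an amino acid transporter, the difference lay in the preceding step. *Tac2* had 10.13 and 10.73 at 0 DIV, then 6.14 and 5.83 at 1 DIV, then 6.52 and 5.63 at 3 DIV. Its change was 0.09 between 1 and 3 DIV, against -4.44 between 0 and 1 DIV (difference 4.53, SE 0.57, adjusted p = 0.029 from limma). *Rgs5* changed by 0.61, against -3.27 (difference 3.88, adjusted p = 0.029), and *Slc38a5* by 0.22, against -2.28 (difference 2.50, adjusted p = 0.036). These genes were called lower at 1 DIV than at 0 DIV and not called in the step from 1 to 3 DIV.

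*Camk2a* and *Sparcl1* turned at 1 DIV. *Camk2a* changed by 2.73 between 1 and 3 DIV, against -1.01 between 0 and 1 DIV, where it was not called (adjusted p = 0.057), a difference of 3.75 (SE 0.37, adjusted p = 0.017 from limma). *Sparcl1* changed by 1.69, against -1.28 (difference 2.96, SE 0.35, adjusted p = 0.029).

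The other direction held genes whose mean at 1 DIV lay above those at 0 and 3 DIV. *Slc7a3*, a cationic amino acid transporter, had 6.58 and 6.76 at 0 DIV, then 10.16 and 11.08 at 1 DIV, then 8.64 and 9.27 at 3 DIV (difference between the steps -5.62, SE 0.68, adjusted p = 0.029 from limma). *Trim66*, a transcriptional corepressor, had 5.79 and 6.03 at 0 DIV, then 8.65 and 8.96 at 1 DIV, then 7.03 and 7.16 at 3 DIV (-4.61, SE 0.60, adjusted p = 0.029). *Asns*, asparagine synthetase of the integrated stress response, had 8.43 and 8.63 at 0 DIV, then 11.09 and 11.47 at 1 DIV, then 10.91 and 10.93 at 3 DIV (-3.11, SE 0.43, adjusted p = 0.040). All 3 were called higher at 1 DIV than at 0 DIV, and none was called between 1 and 3 DIV. *Ccl5* (-3.74), *P2rx3*, an ATP-gated ion channel (-3.03), and *Aff1*, of the elongation machinery (-2.45), had the same sign, with adjusted p-values of 0.029, 0.029 and 0.038. The means at 1 and 15 DIV were 9.63 and 7.73 for *Ccl5*, 8.80 and 7.84 for *Trim66* and 7.97 and 7.62 for *Aff1*. They lay close together for *Slc7a3* (10.62 and 10.61), *P2rx3* (7.88 and 7.82) and *Asns* (11.28 and 11.34). *Asns* changed by -0.36 between 1 and 3 DIV, against 2.75 between 0 and 1 DIV.

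**Figure D5:**
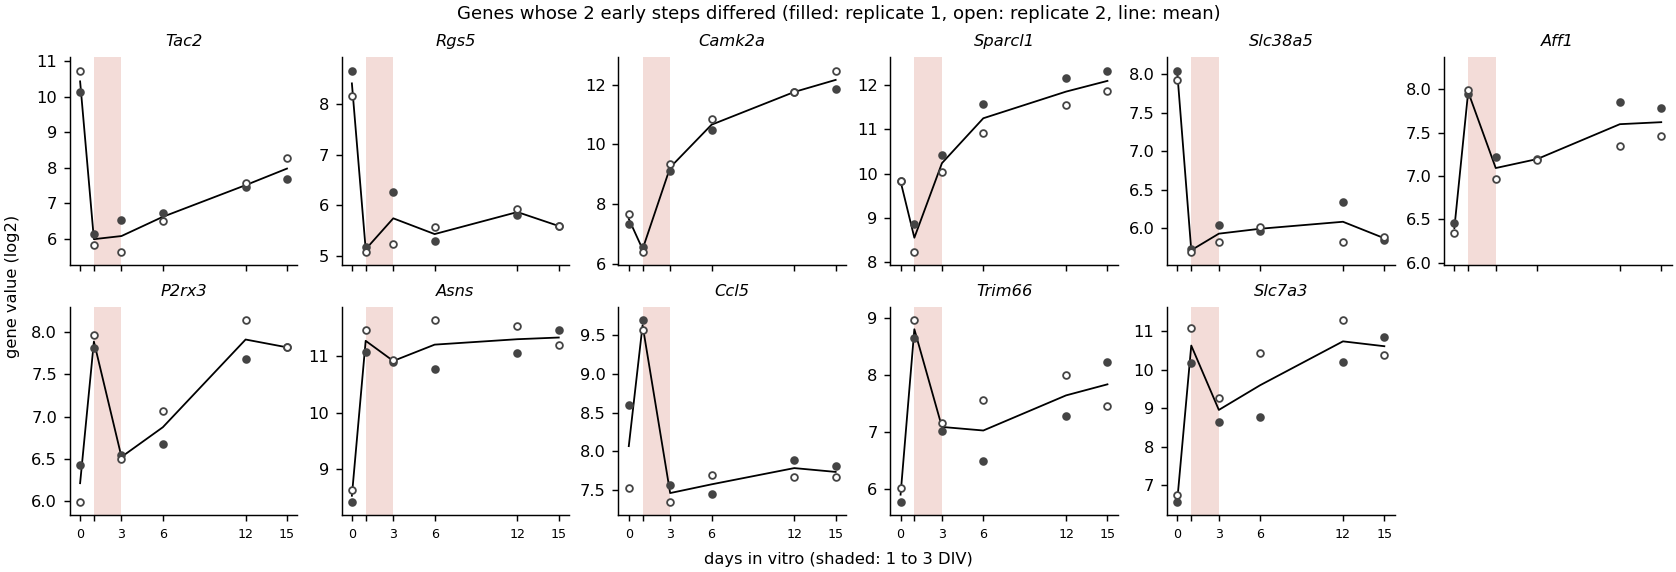
Log2 gene values (y axis) over days in vitro (x axis) of the 11 genes whose change between 1 and 3 DIV differed from their change between 0 and 1 DIV, drawn as in the plot of the leading genes over the culture. *Tac2*, *Rgs5* and *Slc38a5* are high at 0 DIV only or mainly, *Camk2a* and *Sparcl1* turn upward after 1 DIV, and the last 6 genes have a mean at 1 DIV above that at 0 DIV and at 3 DIV.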

How the data were processed

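RNA of 12 cultures was hybridised to Affymetrix Mouse Gene 1.0 ST arrays. For labelling, the kit in the labels is not that of the methods. The authors ran RMA (package oligo, version not given in the sources used here), and the deposited values are log2 probeset values after background correction and normalisation across arrays, before any gene summary or batch adjustment. RMA draws the arrays to a common distribution, so a shift of most genes at once would not show. Precision is limited by the number of arrays.

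The deposited table held 241576 probesets. Those with a single gene symbol in the platform annotation, 212138, were used, 4672 with several and 24766 with none were left out, and 2743 symbols were updated. As in the methods, median polish was applied to the more variable 50% of each gene's probesets (by interquartile range). There were 20358 genes, with a median of 8 probesets and 4 used, of which 3461 rested on a single probeset. Genes were fitted by limma 3.58.1 in R 4.3.3 (data.table, version 1.17.8) on all 12 arrays, with time and a replicate block, since the methods fit time and batch (date of experiment). The fit had 5 residual and 5.64 prior degrees of freedom. Adjusted p-values are Benjamini-Hochberg values over all genes, called under 0.05. Replicate numbers come from the labels. Deviations of same-numbered arrays correlated across genes with a median r of 0.30 over 15 pairs of times (0.11 to 0.46, and 0.44 for 3 and 1 DIV). Where nothing says that arrays came from separate animals, p-values measure the spread between these arrays.

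On simulated data for 3 DIV minus 1 DIV over 20358 genes, 66 genes each were shifted by 1, 2 or 3 log2 units. The fit found 50%, 98.5% and 100% of them and called 8 unchanged genes. The simulated noise was independent between genes and arrays and had the same spread on every array. The measured replicates differed in the size of the step, so these shares need not hold for them. Figures were drawn with Python 3.11.15 and matplotlib 3.10.9. Promoter sequences are RefSeq's (GRCm38.p6), and the files give no position for the probesets.

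The members and the gene lists were chosen with earlier results of these data known. The genes named are the 14 largest rises and falls called in the same direction in both replicates with at least 2 probesets, up to 4 called members of a list or, with none, its largest difference, the 5 largest differences each way between steps, *Nek7* and *Kif11*. Other list members, the remaining risers, *Gm9210* and *Aff1* were picked with their values in view.

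Alternative settings were no replicate block, all probesets, the mean of probesets, quantile normalisation of gene values, centred arrays, leaving out the 33.3% of genes with the least signal, robust variances with an intensity trend, the 4 arrays alone, leaving out both 12 DIV arrays and leaving out each array. Leaving out arrays of times other than those compared was chosen after seeing the data.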

Additional observations from a re-analysis of the deposited data

Results flagged for a closer look

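The genes listed here stand out because their change between 1 and 3 DIV differed from their change between 0 and 1 DIV by a limma test of that difference, with 2 arrays at each time. The difference, in log2 units, was 4.53 for *Tac2*, 3.88 for *Rgs5*, 3.75 for *Camk2a*, 2.96 for *Sparcl1* and 2.50 for *Slc38a5*. It was -2.45 for *Aff1*, -3.03 for *P2rx3*, -3.11 for *Asns*, -3.74 for *Ccl5*, -4.61 for *Trim66* and -5.62 for *Slc7a3*. Only *Camk2a*, *Sparcl1* and *Ccl5* among these 11 genes were also called between 1 and 3 DIV.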

How the results depend on the processing

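Against 32 genes higher and 4 lower at 3 DIV, limma called 1 and 1 without the replicate block, 1 and 1 with the 4 arrays alone, 52 and 15 with all probesets, 42 and 10 with the mean of probesets, 92 and 25 without the genes of lowest signal, 170 and 25 with an intensity trend and robust variances, and 60 and 16 without both 12 DIV arrays. Leaving out 1 array gave 0 to 60 genes higher and 0 to 16 lower. For the difference from the preceding step (5 higher and 6 lower), the fit without the replicate block called 0 and 0 (989 at an unadjusted p under 0.05), all probesets 10 and 24, the signal filter 9 and 15, the intensity trend 22 and 24, the fit without both 12 DIV arrays 7 and 10, and leaving out 1 array 0 to 7 and 0 to 10. For the next step, leaving out 1 array gave 0 to 1 higher. Of the 7 and 1 called list genes, 1 and 1 were called without the block, and 9 and 3 with all probesets. The estimated differences between 3 and 1 DIV cannot move without the block, with the signal filter, the intensity trend or the 4 arrays alone, or without arrays of other times. Where they could move, the difference relative to that of the reported fit lay between 0.32 (all probesets) and 1.32 (without 3 DIV replicate 2) over the 36 genes. The cause of these moves was not tested. The 4 arrays alone hold no other step, so that fit could not be made for the differences between steps.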
